A study of Mus musculus with 6 samples.

Results

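The WNT genes described here were 58 protein-coding genes of the 57010 genes in the deposited count table. They were chosen by a rule on the gene symbol, with earlier results of these data known. The set held the WNT ligands, the ligand acyltransferase Porcn, the R-spondins, the Frizzled receptors and the co-receptors Lrp5, Lrp6, Ror1 and Ror2. It also held the secreted antagonists of the SFRP, DKK and WIF families and the receptor-removing ligases Znrf3 and Rnf43. The intracellular modulators Axin1, Axin2, Nkd1 and Nkd2 and the nuclear effectors Ctnnb1, Lef1, Tcf7, Tcf7l1 and Tcf7l2 completed it. RNA-seq counts came from 6 libraries of primary neonatal mouse cardiomyocytes (NMCMs), V1 to V3 as the HO + Vehicle group and T4 to T6 as the HO + β-SITO group, with n = 3 in each. All 6 libraries came from cells under hypoxia (HO), and the treatment that differed was β-sitosterol (β-SITO), a plant sterol, against its vehicle. The cells were isolated from C57BL/6 pups aged 1 to 3 days and parted from cardiac fibroblasts by differential adhesion. The dose and duration of β-SITO and the length of hypoxia behind these libraries were not given in the sources used here, and no normoxic library was analysed. Of the 58 genes, 38 had at least 10 counts in 3 or more libraries, and 6 had 0 counts in every library.

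WNT proteins are secreted lipid-modified ligands that bind Frizzled receptors together with a co-receptor. Binding to LRP5 or LRP6 slows the destruction of β-catenin, which then acts with TCF/LEF factors on target genes, while ROR receptors serve branches that do not need β-catenin. R-spondins raise the response by keeping the ligases ZNRF3 and RNF43 away from Frizzled, and the SFRP, DKK and WIF proteins hold it back outside the cell. In the heart these signals are known for their parts in development, fibroblast activation and the healing of infarcts.

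With β-SITO most of the detected WNT ligands and secreted antagonists among the 58 genes rose, 2 of 3 R-spondins rose, and the Frizzled receptors moved in both directions. In the quasi-likelihood test of edgeR, adjusted after Benjamini-Hochberg over 14799 genes, 21 of the 38 WNT genes were called higher and 1, Fzd1, was called lower. A call needed an adjusted p below 0.05 together with a change of over 2-fold. By the same rule 22.8% of all genes tested were called, 12.8% higher and 10.1% lower, against 57.9% of the 38 WNT genes. Without the fold threshold, 27 of the 38 rose, 3 fell and 8 did not pass, where 66.8% of all genes passed, 33% higher and 33.8% lower. Scaling by the upper quartile or by library size alone, which raised the log2 fold changes of all genes by a median of 0.14 or 0.15, gave 32 that rose, with Axin2, Fzd3, Nkd2, Ror2 and Znrf3 added. For 33 genes no library of one group fell within the range of the other, 30 higher and 3 lower, beside 70.5% of all genes, 34.8% higher and 35.8% lower. The median log2 fold change was 1.05 over the 38 genes and -0.01 over all genes tested. Dkk2, Rspo1 and Wnt16 reached 10 counts in the HO + β-SITO libraries alone, and among the other 35 genes 18 were called higher and 1 lower. Of those 18, Wnt4, Rspo2, Wnt11 and Sfrp4 had 10 counts in fewer than 3 HO + Vehicle libraries. They met the count floor only with HO + β-SITO libraries, so the 18 is not free of the filter either. The stricter glmTreat test of edgeR, against a change of 2-fold, called 16 higher, without Wnt5b, Wnt11, Fzd8, Lrp5 and Dkk3.

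**Figure D1:**
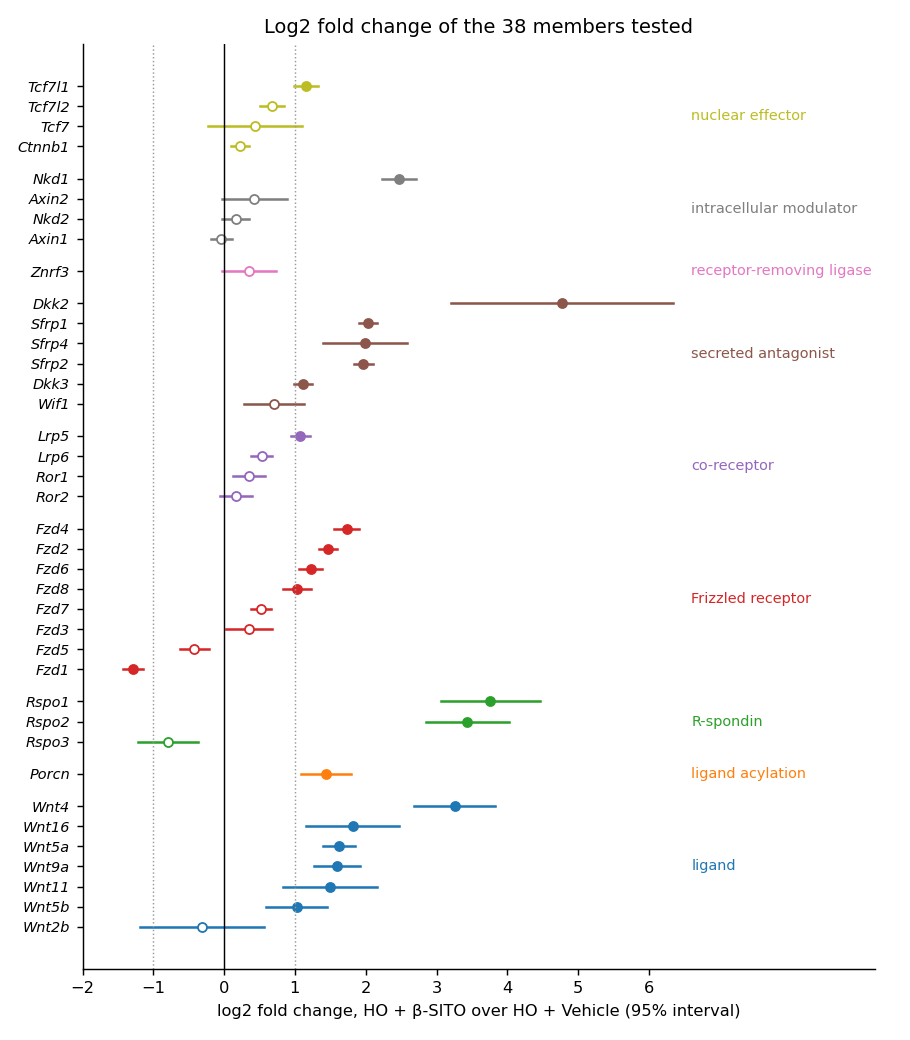
Log2 fold change of each of the 38 WNT genes tested, HO + β-SITO over HO + Vehicle, with its 95% interval, grouped by role. Filled points mark the 22 called genes, and dotted lines mark 2-fold. All called genes lie to the right of 0 except Fzd1 at -1.29.

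Expression is given below as CPM, the counts relative to library size after TMM scaling, and levels of different genes are compared only as CPM per kb of exon. Library totals were 16694734 to 17082129 counts for V1 to V3 and 16962152 to 18460522 for T4 to T6, so that 10 counts came to 0.514 to 0.632 CPM. The labels give the cells as cardiomyocytes. Per kb of exon, 12 cardiomyocyte markers summed to 2055 to 2397 CPM in V1 to V3 and 1970 to 3757 in T4 to T6, below the 4543 to 4748 and 6530 to 6728 of 12 fibroblast markers. The summed fibroblast markers thus stood above those of the labelled cell type in every library. With vehicle most of the fibroblast sum came from Col1a1, Col3a1, Fn1 and Col1a2, at 1387, 1062, 785 and 547 CPM per kb. The lowest of that list was Ddr2 at 18.9, and the cardiomyocyte list ran from Ttn at 1.53 to Actc1 at 902.7. Sums of different marker genes do not give the shares of cell types. The β-SITO libraries alone carry the suffix C in their library names, so a separate preparation and the treatment cannot be told apart. In bulk RNA, fewer cells of a type and less RNA per cell cannot be told apart either. Nothing in the labels says that the 3 libraries of a group came from separate cultures, so the p-values measure the spread between these libraries, which may be technical.

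**Figure D2:**
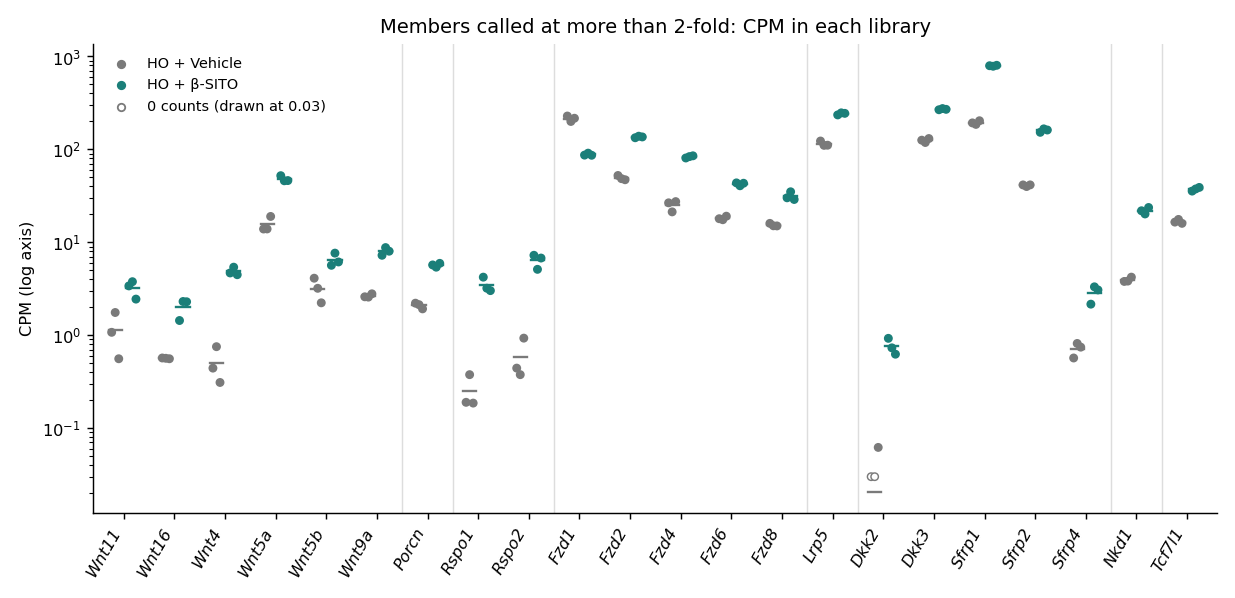
CPM on a log axis in each library for the 22 WNT genes called at more than 2-fold, grouped by role, with the group mean as a bar. Grey points are HO + Vehicle and green points HO + β-SITO, and the open points at 0.03 are the 2 HO + Vehicle libraries without a Dkk2 count. The groups are apart for every gene shown, and Fzd1 alone is lower with β-SITO.

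Among the ligands, 6 of the 7 with enough counts were called higher and none was called lower. Of all genes tested, 12.8% were called higher and 10.1% lower. Wnt16 had enough counts only through the HO + β-SITO libraries, so it could enter this count only as a higher gene. Of the HO + Vehicle libraries, Wnt4 reached 10 counts in V2 alone and Wnt11 in V1 and V2. Both thus needed HO + β-SITO libraries to meet the floor. Wnt4, a ligand of kidney and gonad development (chr4:137004800-137027037, GRCm39, as deposited), had 0.442, 0.752 and 0.310 CPM in V1 to V3 and 4.68, 5.40 and 4.48 CPM in T4 to T6. The groups did not overlap, and the HO + Vehicle values rested on 5 to 12 counts. Its log2 fold change was 3.25 ± 0.27 (SE, adjusted p = 3.64e-08), the highest among the ligands. Wnt5a, the main ligand of the ROR branch, was at 13.9, 13.9 and 19.0 CPM in V1 to V3 and at 52.1, 45.9 and 46.2 CPM in T4 to T6. It rose by 1.62 ± 0.11 on the log2 scale (adjusted p = 2.44e-09), with every HO + β-SITO library above every HO + Vehicle library. Its close relative Wnt5b rose from 4.11, 3.20 and 2.23 CPM to 5.65, 7.64 and 6.14 CPM, 1.02 ± 0.20 on the log2 scale (adjusted p = 3.25e-04), which sits at the 2-fold threshold. Without V3 it was 0.85 and without T5 0.92, both under 2-fold. The Wnt5a to Wnt5b count ratio within a library overlapped between the groups, at 5.41 ± 2.72 and 7.58 ± 1.61 (n = 3, two-sided exact permutation p = 0.3).

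Wnt9a, a ligand of joint and valve development, had 2.59, 2.57 and 2.79 CPM in V1 to V3 and 7.25, 8.77 and 8.02 CPM in T4 to T6. The groups were well apart, with a log2 fold change of 1.59 ± 0.15 (adjusted p = 1.88e-07). Wnt11, a ligand of heart development that acts mostly without β-catenin, had 1.07, 1.76 and 0.558 CPM against 3.39, 3.77 and 2.45 CPM. The spread among its HO + Vehicle libraries was wider than the gap to the lowest HO + β-SITO library, the groups did not overlap, and the log2 fold change was 1.497 ± 0.31 (adjusted p = 5.24e-04). Wnt16, a ligand known from bone, was steady at 0.569, 0.564 and 0.558 CPM in the HO + Vehicle group, which is 9 counts in each library. In T4 to T6 it was at 1.44, 2.31 and 2.29 CPM, a log2 fold change of 1.82 ± 0.31 (adjusted p = 8.74e-05). Wnt2b was the ligand that did not pass, at 0.749 ± 0.425 and 0.604 ± 0.117 CPM (mean ± SD, n = 3, adjusted p = 0.517 by edgeR), with overlapping groups.

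Porcn encodes the acyltransferase that WNT proteins need in order to be secreted. It had 2.21, 2.13 and 1.92 CPM in V1 to V3 and 5.70, 5.40 and 5.93 CPM in T4 to T6, with no overlap and a log2 fold change of 1.44 ± 0.17 (adjusted p = 1.61e-06). Wls, which carries the acylated ligands to the cell surface, is outside the 58 genes and rose by under 2-fold, from 196.6 ± 6.04 to 260.6 ± 6.78 CPM (log2 fold change 0.41, adjusted p = 1.12e-05).

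The other 12 ligand genes stayed under 10 counts in at least 4 libraries. Wnt7a reached 16 counts in 1 library, Wnt6 11, Wnt2 7 and Wnt10b 4, and Wnt10a, Wnt7b and Wnt9b reached 2 and Wnt8a 1. Under the floor, Wnt6 was lower with β-SITO without overlap, at 8, 8 and 11 counts in V1 to V3 and 4, 6 and 3 in T4 to T6. Wnt2 was higher without overlap, at 1, 3 and 5 counts against 7, 6 and 6. Wnt1, Wnt3, Wnt3a and Wnt8b had 0 counts in all 6 libraries. For a gene at 0, up to 3 counts cannot be told from none, which is 0.154 to 0.190 CPM in these libraries, and this covers counting error only. Several ligand genes lie side by side in the genome. Wnt9a, with up to 156 counts, lies 16175 bases from Wnt3a, which had 0 counts, and both genes of the neighbouring pairs Wnt3 with Wnt9b and Wnt10b with Wnt1 stayed at 4 counts or fewer.

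Summed over the 19 ligand genes, the level was 24.3 to 27.8 CPM in V1 to V3 and 71.3 to 76.7 CPM in T4 to T6, 2.92 times as high. Per kb, Wnt5a was the leading ligand in both groups, with 34.7 to 46.3% of the ligand level with vehicle and 39.8 to 47.8% with β-SITO, and these ranges overlap. Wnt5b held 16.04 to 30.2% and 15.3 to 19.5% and Wnt9a 15.2 to 15.99% and 15.6 to 18.0%, and Wnt9a stood above Wnt5b in T4 and T6. The share of Wnt4 went from 1.41 to 3.53% to 7.97 to 8.72%, without overlap. The shares of Wnt6, which was under the count floor, and Wnt2b went down without overlap, from 4.50 to 5.94% to 0.532 to 1.04% and from 2.35 to 5.63% to 0.833 to 1.14%.

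Reads of overlapping genes on the opposite strand could not be told apart for Wnt5b with Fbxl14 (Fbxl14 means of 388 and 462 counts), for Wnt5a with Gm2670 and for Ctnnb1 with Ulk4, since the strand setting of the counting was not given in the sources used here.

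Among the R-spondins, Rspo1 and Rspo2 were called higher and Rspo3 fell by less than 2-fold. The 2 called higher were 66.7% of the 3 tested, beside 12.8% of all genes tested. Rspo1 had enough counts only through the HO + β-SITO libraries, so it could be tested only as a higher gene. Rspo1 had 3, 6 and 3 counts in V1 to V3 and 82, 57 and 58 counts in T4 to T6, or 0.190, 0.376 and 0.186 CPM against 4.21, 3.20 and 3.02 CPM. The HO + Vehicle libraries were at 6 counts or fewer and every HO + β-SITO library was above 50, with a log2 fold change of 3.76 ± 0.33 (adjusted p = 7.29e-08). Rspo2, which is known for its part in limb and lung growth, had 0.442, 0.376 and 0.930 CPM against 7.25, 5.12 and 6.77 CPM. Its log2 fold change was 3.44 ± 0.27 (adjusted p = 2.51e-08), also without overlap. Rspo3, known as an R-spondin of the vasculature, went the other way, from 3.47, 3.39 and 3.22 CPM to 1.59, 2.19 and 2.03 CPM. It fell by 0.80 on the log2 scale (SE 0.20, adjusted p = 0.00234) with no overlap between the groups. Rspo4 had 0 counts in every library. Per kb, Rspo3 was the highest R-spondin in the HO + Vehicle group (1.09 ± 0.0412 CPM per kb, n = 3) and the lowest of the 3 detected in the HO + β-SITO group (0.627 ± 0.1003), where Rspo1 stood at 1.80 ± 0.332 and Rspo2 at 1.25 ± 0.219.

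Of the ligases that R-spondins counter, Znrf3 had 6.10 ± 1.34 and 7.77 ± 1.66 CPM (n = 3) with overlapping groups and did not pass (log2 fold change 0.35, 95% interval -0.03 to 0.73, adjusted p = 0.0992 by edgeR). Znrf3 passed without V1 (0.56, adjusted p = 0.0188), without T4 (0.50, adjusted p = 0.00787) and without the filter on low counts (0.35, adjusted p = 0.0329). Rnf43 stayed under the count floor, with 5, 0 and 1 counts in V1 to V3 and 11, 7 and 16 counts in T4 to T6.

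The Frizzled receptors changed in composition more than in sum. Over the 10 Frizzled genes the summed level was 367.9 to 410.4 CPM in V1 to V3 and 456 to 471.1 CPM in T4 to T6, 1.19 times as high. Of the 8 tested, 4 (50%) were called higher and 1 (12.5%) lower, beside 12.8% and 10.1% of all genes tested. Fzd1 (chr5:4803839-4808035, GRCm39, as deposited), a receptor for ligands of the β-catenin branch, had 228.5, 199.7 and 216.3 CPM in V1 to V3 and 86.7, 91.1 and 86.4 CPM in T4 to T6. Every HO + β-SITO library lay under 100 CPM and every HO + Vehicle library above 190, and Fzd1 fell by 1.29 on the log2 scale (SE 0.06, adjusted p = 6.57e-11). Fzd2, which also takes part in signalling by Wnt5a, had 52.4, 48.4 and 47.1 CPM against 133.4, 138.6 and 136.1 CPM. It rose by 1.46 ± 0.06 on the log2 scale (adjusted p = 9.60e-12).

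Fzd4, the receptor of retinal vessel growth, which also binds the ligand norrin, had 26.6, 21.3 and 27.4 CPM in V1 to V3 and 80.8, 83.6 and 85.3 CPM in T4 to T6. With a log2 fold change of 1.73 ± 0.08 (adjusted p = 5.72e-11) it rose most among the Frizzled genes. Fzd6, known from planar cell polarity, went from 17.9, 17.5 and 19.1 CPM to 43.6, 40.6 and 43.2 CPM (log2 fold change 1.22 ± 0.08, adjusted p = 1.03e-09). Fzd8 had 253, 240 and 242 counts against 586, 622 and 555, or 15.3 ± 0.554 and 31.3 ± 3.21 CPM (n = 3), a rise of 1.03 ± 0.09 on the log2 scale (adjusted p = 7.62e-08), which lies at the 2-fold threshold and was 0.97 without T5. None of these genes overlapped between the groups, as held for 70.5% of all genes tested. Fzd7 rose by less than 2-fold, from 44.5 ± 2.31 to 63.9 ± 3.24 CPM (log2 fold change 0.52, adjusted p = 6.01e-06), and Fzd5 fell from 18.1 ± 1.65 to 13.5 ± 0.632 CPM (log2 fold change -0.42, adjusted p = 0.00108). Fzd3 did not pass (4.13 ± 0.484 and 5.27 ± 0.328 CPM, adjusted p = 0.0560 by edgeR, n = 3), and Fzd9 and Fzd10 reached at most 13 and 18 counts.

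**Figure D3:**
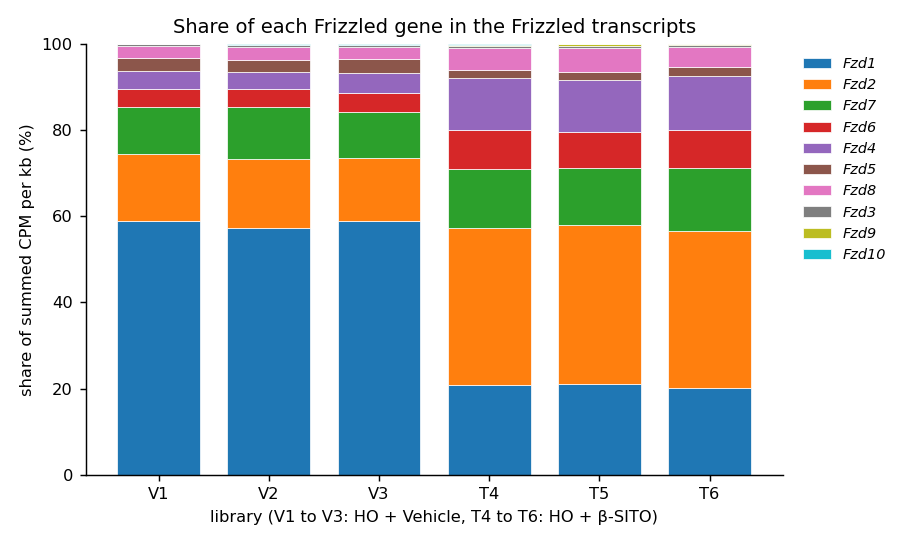
Share of each Frizzled gene in the summed CPM per kb of the 10 Frizzled genes, in percent, for each library. Fzd1 makes up 57.3 to 58.9% in V1 to V3 and 20.2 to 21.1% in T4 to T6, where Fzd2 is the largest at 36.5 to 36.8%.

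Per kb of exon, the leading Frizzled gene was therefore Fzd1 in the HO + Vehicle group, at 57.3 to 58.9% of the Frizzled level, and Fzd2 in the HO + β-SITO group, at 36.5 to 36.8%. Fzd2 had held 14.7 to 15.9%, and Fzd1 went to 20.2 to 21.1%. Fzd4 went from 3.81 to 4.66% to 12.1 to 12.5%, and Fzd7 from 10.6 to 12.1% to 13.4 to 14.6%. The ratio of Fzd1 to Fzd2 counts within a library does not depend on scaling between libraries, and it was 4.36, 4.13 and 4.59 in V1 to V3 and 0.650, 0.657 and 0.635 in T4 to T6. A two-sided exact permutation test of this ratio gave p = 0.1, the smallest p that 3 against 3 libraries can give. Fzd1 and Fzd2 each separated the groups, in opposite directions, so their ratio had to separate them too.

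Of the co-receptors, Lrp5 was called higher. Lrp5, which pairs with Frizzled in the β-catenin branch, had 123.0, 110.5 and 110.9 CPM in V1 to V3 and 234.9, 247.2 and 244.2 CPM in T4 to T6, without overlap (log2 fold change 1.08 ± 0.06, adjusted p = 3.83e-10). Its paralog Lrp6 rose by under 2-fold, from 94.7 ± 8.11 to 136.8 ± 6.26 CPM (log2 fold change 0.53, adjusted p = 5.81e-06). The Lrp5 to Lrp6 count ratio within a library went from 1.27, 1.29 and 1.09 to 1.80, 1.82 and 1.70, again without overlap (two-sided exact permutation p = 0.1). The ranges of both genes within each group already fixed this separation, so the p-value adds no support. Of the Wnt5a receptors, Ror1 rose from 11.8 ± 1.09 to 15.1 ± 1.37 CPM (log2 fold change 0.35, adjusted p = 0.00826). Ror2 was at 10.8 ± 0.838 and 12.1 ± 0.745 CPM (n = 3) and did not pass (log2 fold change 0.17, 95% interval -0.05 to 0.39, adjusted p = 0.166 by edgeR).

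Of the 9 secreted antagonists chosen by symbol, the 6 with enough counts rose, 5 of them past 2-fold. Of all genes tested, 12.8% were called higher. Dkk2 had enough counts only through the HO + β-SITO libraries, so it could enter the 6 and the 5 only as a rise. Frzb, an SFRP-family decoy outside the symbol rule, fell. Summed over the 9 antagonist genes, the level went from 349.2 to 380.4 CPM to 1222 to 1247 CPM, 3.39 times as high. Frzb had 307.5, 308.2 and 310.1 CPM in V1 to V3 and 103.5, 95.6 and 90.8 CPM in T4 to T6, without overlap (log2 fold change -1.67 ± 0.06, adjusted p = 1.85e-12). With Frzb added, a sum chosen after the data were seen, the level went from 657.4 to 690.5 CPM to 1326 to 1338 CPM, 1.98 times as high. Sfrp1 (chr8:23901518-23939648, GRCm39, as deposited), a secreted decoy that carries a Frizzled-like domain, had 192.7, 185.7 and 203.3 CPM in V1 to V3 and 795.0, 784.6 and 803.2 CPM in T4 to T6. The spread within either group was small beside the difference, with a log2 fold change of 2.03 ± 0.06 (adjusted p = 1.15e-13). Sfrp2, a decoy of the same family known from cardiac fibroblasts, had 41.4, 39.8 and 41.5 CPM against 152.6, 166.2 and 161.6 CPM. It rose by 1.97 ± 0.06 on the log2 scale (adjusted p = 2.50e-13), also without overlap. Sfrp4 was at 0.569, 0.815 and 0.744 CPM against 2.16, 3.32 and 3.07 CPM, a log2 fold change of 1.99 ± 0.28 (adjusted p = 1.25e-05). Per kb it stood far below Sfrp1 in the HO + Vehicle group, at 0.170 ± 0.0304 against 44.4 ± 2.02 (n = 3).

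Dkk3, the diverged DKK member whose effect on WNT signalling varies between settings, had 125.6, 118.6 and 130.8 CPM in V1 to V3 and 267.0, 274.9 and 269.7 CPM in T4 to T6. It rose by 1.11 ± 0.06 on the log2 scale (adjusted p = 1.41e-10), with no overlap. Dkk2, which binds LRP5 and LRP6, had 0, 0 and 1 counts in V1 to V3 and 18, 13 and 12 counts in T4 to T6. It was called higher by edgeR (adjusted p = 3.58e-05), and the ratio of the scaled counts was 36.5, with a 95% exact binomial interval of 6.21 to 1475 that covers counting error only. Wif1, which binds WNT ligands directly, rose by less than 2-fold, from 3.82 ± 0.190 to 6.24 ± 1.83 CPM (log2 fold change 0.71, adjusted p = 0.00558). Dkk1 and Sfrp5 had at most 4 counts and Dkk4 had 0 in every library. Per kb, Sfrp1 led the 9 antagonists chosen by symbol in both groups, with 43.1 to 43.7% and then 52.5 to 54.3% of their level, while Dkk3 went from 36.0 to 36.6% to 23.4 to 23.9%. Frzb stood above Sfrp1 in the HO + Vehicle group and below it in the HO + β-SITO group, at 95.3 and 29.9 CPM per kb.

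Sfrp1 and Fzd1 moved in opposite directions within the same libraries. The Sfrp1 to Fzd1 count ratio was 0.843, 0.930 and 0.940 in V1 to V3 and 9.17, 8.62 and 9.30 in T4 to T6 (two-sided exact permutation p = 0.1). Each gene by itself already separated the groups, in opposite directions. The ratio therefore had to separate them, and its p-value adds no support. Per kb, Fzd1 stood at 51.2 ± 3.45 and Sfrp1 at 44.4 ± 2.02 in the HO + Vehicle group, and at 21.0 ± 0.618 and 181.7 ± 2.13 in the HO + β-SITO group (n = 3).

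Inside the cell, Nkd1 was called higher, and Axin1, Axin2 and Nkd2 did not pass. Nkd1 (chr8:89247982-89321512, GRCm39, as deposited), a Dishevelled-binding inhibitor that the pathway itself induces, had 3.79, 3.82 and 4.22 CPM in V1 to V3 and 21.8, 20.2 and 23.7 CPM in T4 to T6. It rose by 2.47 ± 0.11 on the log2 scale (adjusted p = 2.73e-11), and no library of one group came near the other. Axin2, a scaffold that is widely used as a target gene of β-catenin, had 2.08, 2.51 and 2.85 CPM against 2.83, 3.04 and 4.16 CPM. The groups overlapped, and it did not pass (log2 fold change 0.43, 95% interval -0.02 to 0.88, adjusted p = 0.0874 by edgeR). Axin2 passed without T4 (0.54, adjusted p = 0.0373) and under scaling by the upper quartile (0.57, adjusted p = 0.0270) or by library size alone (0.58, adjusted p = 0.0255). The Nkd1 to Axin2 count ratio was 1.82, 1.53 and 1.48 in V1 to V3 and 7.73, 6.65 and 5.69 in T4 to T6, without overlap (two-sided exact permutation p = 0.1). With the Nkd1 and Axin2 levels given above, this ratio had to separate the groups, so its p-value adds no support. Axin1, the constitutive scaffold, was at 50.6 ± 2.07 and 49.3 ± 3.73 CPM (n = 3, log2 fold change -0.04, 95% interval -0.19 to 0.11, adjusted p = 0.641 by edgeR). Nkd2, the paralog of Nkd1, was at 26.2 ± 2.22 and 29.2 ± 2.75 CPM (n = 3) with overlapping groups (log2 fold change 0.16, adjusted p = 0.124 by edgeR), and passed without V3 (0.25, adjusted p = 0.0497) or T5 (0.25, adjusted p = 0.0389).

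Among the nuclear effectors, Tcf7l1 was called higher. Tcf7l1, the TCF factor known mainly as a repressor, had 16.5, 17.6 and 15.99 CPM in V1 to V3 and 35.6, 37.5 and 38.9 CPM in T4 to T6, without overlap (log2 fold change 1.16 ± 0.08, adjusted p = 3.26e-09). Tcf7l2 rose by under 2-fold, from 14.3 ± 0.573 to 22.8 ± 0.282 CPM (log2 fold change 0.67, adjusted p = 2.83e-06). Ctnnb1, which encodes β-catenin, had the highest level of the 58 genes in the HO + Vehicle group at 75.1 ± 3.29 CPM per kb (n = 3). It rose by 0.22 on the log2 scale, from 390.1 ± 17.1 to 453.8 ± 17.6 CPM (adjusted p = 0.00436). Tcf7 was near the count floor and did not pass (log2 fold change 0.44, adjusted p = 0.233), and Lef1 had at most 9 counts. RNA levels do not report the stability of the β-catenin protein.

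TCF/LEF factors bind a core that reads CTTTGA, and these letters were searched on both strands in the RefSeq promoter windows (250 bases before to 50 after each start, GRCm38.p6). Windows were given for 23 of the 38 genes, and 4 of their 29 windows (13.8%) held the letters, those of Ror1, Fzd1, Wnt11 and Wnt5b, beside 16% of all 32851 windows. With the core read as CTTTG followed by 2 letters that are each A or T, 4 genes held it too, Fzd7, Wnt11, Wnt5b and Tcf7l2, and in the 150 bases before the start CTTTGA was in Wnt11 and Wnt5b. Fzd1 and Ror1 held the letters in neither alternative. The match describes letters only, and no match says only that they are not in this window. The 250 bases before the start are printed 5′ to 3′ for Fzd1, the gene called lower (chr5:4758217-4758466, minus strand), for Wnt11, where the letters lie close to the start (chr7:98834862-98835111, plus strand), and for the pathway-induced Nkd1, which has none (chr8:88527383-88527632, plus strand). Capitals mark the letters as they read on the printed strand, TCAAAG, the reverse complement, which begin at -242 in Fzd1 and at -50 in Wnt11.
Fzd1: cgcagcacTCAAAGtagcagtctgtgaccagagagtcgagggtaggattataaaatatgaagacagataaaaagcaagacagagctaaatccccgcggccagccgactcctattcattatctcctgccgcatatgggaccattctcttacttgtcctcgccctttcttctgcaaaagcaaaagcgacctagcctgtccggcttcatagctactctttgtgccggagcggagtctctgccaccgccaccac
Wnt11: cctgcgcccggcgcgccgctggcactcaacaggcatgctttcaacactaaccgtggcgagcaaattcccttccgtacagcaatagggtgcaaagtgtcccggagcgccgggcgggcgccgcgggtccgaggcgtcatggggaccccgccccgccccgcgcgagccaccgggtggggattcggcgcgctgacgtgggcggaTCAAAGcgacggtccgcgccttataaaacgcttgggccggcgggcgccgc
Nkd1: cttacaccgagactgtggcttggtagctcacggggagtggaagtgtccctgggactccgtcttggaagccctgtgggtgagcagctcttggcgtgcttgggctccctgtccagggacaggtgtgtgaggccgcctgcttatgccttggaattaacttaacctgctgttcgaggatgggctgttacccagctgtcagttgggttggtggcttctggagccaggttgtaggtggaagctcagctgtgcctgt

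Of the 113 other WNT pathway genes that were listed, 101 were tested, of which 24 were called higher and 5 lower, 28.7% in all beside the 22.8% of all genes, and their median log2 fold change was 0.19. Of 11 other extracellular modulators tested, 4 (36.4%) were called higher and 2 (18.2%) lower, beside 12.8% and 10.1% of all genes tested. Sost, which encodes the LRP5 and LRP6 inhibitor sclerostin, had 0 counts in every HO + Vehicle library and 3.24, 5.73 and 7.29 CPM in T4 to T6, at least 28.6-fold higher against 3 counts in a library. Igfbp4, an IGF-binding protein that also hinders Frizzled and LRP6, rose from 137.6 ± 4.10 to 831.7 ± 28.8 CPM (log2 fold change 2.60), and Apcdd1, a membrane-bound WNT inhibitor, from 4.11 ± 0.0858 to 21.8 ± 0.880 CPM (2.40). The 2 called lower were Frzb, described above, and Sulf1, which trims heparan sulphate and fell from 457.8 ± 28.4 to 228.8 ± 9.60 CPM (adjusted p = 1.45e-09), at the 2-fold threshold.

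**Figure D4:**
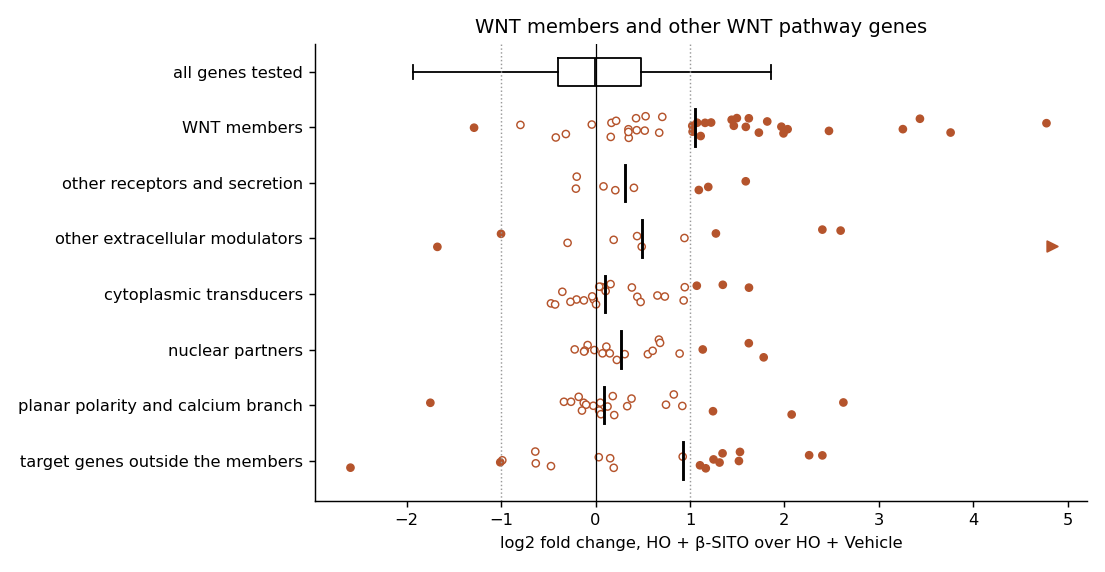
Log2 fold change, HO + β-SITO over HO + Vehicle, of the 38 WNT genes and of 6 lists of other pathway genes, with filled points for genes called at more than 2-fold and a bar at the median. The box shows all 14799 genes tested with whiskers at the 5th and 95th percentiles (-1.93 and 1.86), and the triangle is Sost at its lower bound. The median of the WNT genes lies at 1.05, and those of the cytoplasmic and planar polarity lists lie near 0.

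Of the other receptors and secretion genes, 3 of 8 tested (37.5%) were called higher and none lower, beside 12.8% and 10.1% of all genes tested. Reck, which with Adgra2 forms the receptor for Wnt7a and Wnt7b, rose from 31.3 ± 1.32 to 94.3 ± 4.14 CPM (log2 fold change 1.59), and Adgra2 from 130.7 ± 8.08 to 279.0 ± 7.85 CPM (1.09), while those ligands stayed under the count floor. Ptk7, a co-receptor of planar polarity, rose from 72.3 ± 5.88 to 165.3 ± 5.66 CPM (1.19), and Lgr5, a receptor for R-spondins, had 0 counts. Of the 24 cytoplasmic transducers, 3 were called higher and none lower, and the median was 0.10. Those 3 bind Dishevelled, namely Dact3 (1.62), Dact1 (1.35) and Ccdc88c (1.07). Of 18 nuclear partners, 3 were called higher, namely Pygo1 (1.78), a co-activator of β-catenin, Tle2 (1.62), a co-repressor of TCF factors, and Sox17 (1.14). Of 22 genes of the planar polarity and calcium branch, 3 were called higher, Daam2 (2.62), Dchs1 (2.08) and Celsr2 (1.24). In that branch 1 was called lower, Celsr3, at 1.21 ± 0.0258 and 0.360 ± 0.235 CPM. Called higher were thus 12.5% of the cytoplasmic, 16.7% of the nuclear and 13.6% of the planar polarity list. These shares were near the 12.8% of all genes tested.

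Textbook target genes of β-catenin outside the 58 genes went both ways, with 9 of 19 called higher and 2 lower. These were 47.4% and 10.5%, beside 12.8% and 10.1% of all genes tested. Apcdd1 (2.40), Ccn5 (2.26) and Sox4 (1.53) rose most on the log2 scale among those with a mean of at least 1 CPM. Cd44, which encodes a hyaluronan receptor, fell from 448.5 ± 31.1 to 74.2 ± 3.63 CPM (log2 fold change -2.60, adjusted p = 3.57e-14). Tbx3 fell from 7.16 ± 0.336 to 3.57 ± 0.864 CPM (-1.01), at the 2-fold threshold. The targets Sp5 and Notum reached at most 10 and 5 counts, and Axin2 did not pass, as given above.

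**Figure D5:**
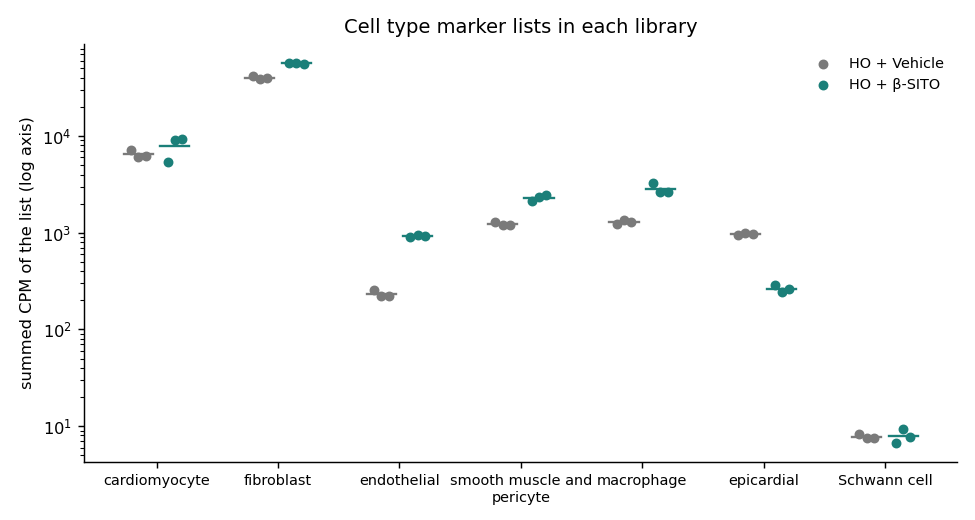
Summed CPM of 7 cell type marker lists in each library, on a log axis, with the group mean as a bar. The endothelial list goes from 220.4 to 254.2 CPM up to 903.1 to 944 CPM, the epicardial list goes down, and the cardiomyocyte list overlaps between the groups.

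Markers of several cell types moved with the same contrast as the WNT genes. The calls below stand beside 12.8% of all genes tested called higher and 10.1% lower. All 10 endothelial markers were called higher, and their sum went from 220.4 to 254.2 CPM to 903.1 to 944 CPM, with Cdh5 the most abundant (78.4 ± 8.88 to 280.9 ± 17.3 CPM). Of 10 smooth muscle and pericyte markers 6 were called higher (1191 to 1298 against 2136 to 2428 CPM), and of 10 macrophage markers 6 were called higher and 1 lower (1229 to 1349 against 2652 to 3253 CPM). Much of the macrophage rise lay in Lyz2 (means of 647 and 1408 CPM) and Mrc1 (11.75 and 325.2 CPM). Fcgr1 was the 1 called lower (115.9 ± 3.82 to 25.6 ± 2.70 CPM), and Adgre1 and Ptprc did not pass at any fold. Of 12 fibroblast markers 1 was called higher, and their sum went from 38920 to 41490 CPM to 55350 to 56950 CPM. At any fold 9 of the 12 rose and 2, Dcn and Postn, fell, where 33% of all genes tested rose and 33.8% fell. The epicardial sum fell from 956.3 to 991.8 CPM to 243 to 285.4 CPM, mostly through Aldh1a2 (841.8 ± 13.8 to 84.95 ± 6.50 CPM), while 3 of its 10 markers were called higher and 2 lower. The 12 cardiomyocyte markers, 2 of them called higher, summed to 6054 to 7205 CPM and to 5417, 9140 and 9213 CPM, and 6 Schwann cell markers to 7.46 to 8.28 and 6.73 to 9.33 CPM. No listed marker was at 0 in every library. Beside the 2.92-fold of the ligands and the 3.39-fold of the 9 antagonists chosen by symbol, the endothelial sum was 3.99 times as high. The macrophage sum was 2.22 times, the smooth muscle and pericyte sum 1.88 times and the fibroblast sum 1.41 times as high. For the cardiomyocyte, Schwann cell and epicardial sums the ratios were 1.22, 1.02 and 0.27, and the first 2 overlapped between the groups. The part of these cell types in the levels of the WNT genes was not tested.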

How the data were processed

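RNA-seq was performed on 6 libraries of hypoxic NMCMs, and the authors deposited 1 table of raw counts per gene without normalization. The submitters' processing notes name FastQC, HISAT2, featureCounts and GRCm39, and their versions and the strand setting were not given in the sources used here. For the library kit, the labels name Illumina TruSeq and the study's methods ABclonal. From the deposited counts, edgeR 4.0.16 in R 4.3.3 gave CPM, fold changes and p-values. filterByExpr kept 14799 genes, counts were scaled by TMM, and the quasi-likelihood test was fitted with the group as its only term and Benjamini-Hochberg adjustment over all genes tested. Errors of log2 fold changes are SE and those of CPM are SD. The SE was derived as the size of the log2 fold change over the square root of the quasi-likelihood F statistic. The intervals of log2 fold changes were built from this SE. Intervals are at 95%. Exon lengths for CPM per kb came from GENCODE vM21 by Ensembl identifier, for 58 of 58 genes. The model was tested on simulated data. Alternatives were DESeq2 1.42.0, limma-voom 3.58.1, glmTreat, other scaling and filters, and leaving out each library. The 58 genes and all lists were chosen with earlier results of these data known. Every WNT gene past 10 counts in 3 libraries is named, with CPM in each library where it was called. Up to 3 called genes in each direction are named per other list, those with the largest change and a mean of at least 1 CPM, and Lgr5, Sp5, Notum, Apcdd1, Frzb and Wls in any case. Celsr3, Lgr4, Lgr6, the macrophage markers, Dcn and Postn were named after their values were seen. Promoter sequences were from RefSeq (GRCm38.p6), and the other coordinates are those of the deposited table.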

Additional observations from a re-analysis of the deposited data

How the results depend on the processing

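The number of WNT genes called lower was 1 under every alternative. At any fold, which was not counted under glmTreat, 3 fell and 27 to 32 rose, 32 under scaling by the upper quartile or by library size alone. Between 16 (glmTreat against 2-fold) and 23 (no filter on low counts, where 52 of the 58 genes were tested) were called higher, and 20 to 22 when 1 library was left out. Of the 22 called genes, 17 kept their call under every alternative. Under glmTreat Wnt11, Lrp5, Wnt5b, Dkk3 and Fzd8 did not pass, with log2 fold changes of 1.497, 1.08, 1.02, 1.11 and 1.03. Wnt5b went to 0.85 without V3 and to 0.92 without T5, and Fzd8 to 0.97 without T5. Scaling by the upper quartile or by library size alone raised the median of all genes by 0.14 or 0.15 on the log2 scale. The median of the WNT genes was then 1.20 under either scaling, and 1.05 to 1.15 when 1 library was left out, the highest without V1. Axin1, which did not pass in any fit, turned to 0.10 and 0.11 under those scalings and ran from -0.0604 to 0.0184 when 1 library was left out, above 0 without V1 (0.0041) or T4. Wnt2b ran from -0.53 to 0.28, above 0 without V3. Other pathway genes called lower numbered 5 in the main fit. They numbered 4 under DESeq2, limma-voom, RLE scaling, either other filter and without mitochondrial genes. Under glmTreat they numbered 2, and under scaling by the upper quartile or by library size alone 3. When 1 library was left out they numbered 3 to 5, 3 without V1 or T6. With 150 bases before the start, 2 genes held the promoter letters, without Fzd1 and Ror1. No paired analysis was possible because the groups share no replicate number. The causes were not tested. Without the filter, Rnf43 (6 counts in sum against 34, adjusted p = 0.00219 by edgeR) and Sfrp5 (0 against 8, adjusted p = 0.0381) were also called higher. In that fit Wnt6 was lower and did not pass (27 against 13, log2 fold change -1.26, adjusted p = 0.0685 by edgeR).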
